A study of Homo sapiens with 6 samples.

Results

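The 53 genes described here encode the proteins that license origins of DNA replication, open them and copy DNA, together with regulators of the step from G1 into S phase. They were taken by symbol from a table of 29436 gene symbols, and all 53 were found in it. The cells were hemogenic endothelium, the endothelial cells that give rise to blood. They were differentiated on AGM-S3 stroma from H1, a human embryonic stem cell line in wide use. In both groups the sort on day 8 took cells with CD34, KDR and CD144 on their surface and without CD43. Each library was made from the polyA RNA of 1000 of them, after amplification of the cDNA. The untreated group (3 libraries) had no added agent, and the lipoic acid group (3 libraries) had alpha lipoic acid, an antioxidant, at 100 µg/ml in the medium that induces blood formation. All libraries came from the same cell line, and the labels do not say whether replicates were separate cultures, so p values measure only the spread between these libraries.

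Before S phase, the origin recognition complex, CDC6 and CDT1 load the MCM2 to MCM7 helicase onto DNA, which licenses an origin, and geminin (GMNN) blocks CDT1 once S phase has begun. The kinase of CDC7 and DBF4, CDC45, the GINS complex and MCM10 then turn the loaded helicase into a moving fork. E2F transcription factors switch on many of these genes as cells leave G1, and E2F7 and E2F8 repress them again. These genes are therefore read mostly in cells that divide. In bulk RNA a change in the share of cells in S phase and a change in RNA per cell cannot be told apart.

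The libraries held 30041494 to 41351951 counts, and mitochondrially encoded genes took 2.45% to 2.82% of them in untreated and 4.39% to 5.02% in lipoic acid libraries. Even numbers made up 99.13% to 99.34% of the nonzero counts in 4 libraries, namely untreated replicate 1 and the 3 with lipoic acid. In untreated replicates 2 and 3 the share was 52.01% and 51.97%, and counts of the 4 libraries may overstate the number of independent fragments. Levels are given as CPM, counts divided by library sizes scaled with the trimmed mean of M values (TMM). Endothelial markers, 11 of 11 tested, summed to 12680 to 12810 CPM without and 10780 to 11140 CPM with lipoic acid. Of these 11, 2 rose (18.2%, all tested genes 24.2%) and 6 fell (54.5%, all tested genes 23.3%). Among genes of the sort markers, KDR was 1.17-fold higher, and CD34 and CDH5, which encodes CD144, were 1.78-fold and 1.55-fold lower. Of 11 blood markers 4 (SPN, which encodes CD43, PTPRC, HBE1 and HBG1) had no count and 4 could be tested. Of those 4, PF4 rose from 0.415 ± 0.275 to 3.74 ± 0.733 CPM (adjusted p = 0.000317) and ITGA2B from 0.66 ± 0.689 to 2.47 ± 0.285 CPM (adjusted p = 0.0421), while the summed list, 75.74 to 90.5 CPM without and 77.22 to 100.3 CPM with lipoic acid, was mostly EPOR. Of 10 epithelial and endoderm markers tested 9 rose (90%, all tested genes 24.2%) and 0 fell (all tested genes 23.3%) with lipoic acid. That list summed to 248.5 to 275.1 CPM without and 549.3 to 590.6 CPM with lipoic acid. Of 10 mesenchymal markers 1 rose (10%) and 5 fell (50%). Their sums were 1925 to 2557 CPM without and 1477 to 2026 CPM with lipoic acid, so that the groups overlapped. The part of these markers and of the mitochondrial share in the results on replication genes was not tested.

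E2F sites are the best known shared element of these promoters, so the promoter is shown of each called gene with such a word wholly inside the 120 bases before its start, with TK1 added as a gene that fell and holds none. The 4 words searched on both strands were TTTCCCGC, TTTCGCGC, TTTGCCGC and TTTGGCGC, which can overlap each other when one lies on each strand. Each line gives the 120 bases before a RefSeq start (GRCh38.p14) on the strand of the gene, with E2F words in capitals. For TK1 alone the CCAAT boxes, read here as the reverse complement, are also in capitals. The GMNN, MCM7 and POLE stretches hold 2 CCAAT matches each, left in lower case. Within 300 bases around a start, CCAAT stood in 8 of 13 replication genes that rose, 17 of 24 not called and 2 of 7 that fell. Over tested genes with such a window the share was 43.1%. All 9 stretches overlap the span of their gene in GENCODE v29, which includes models with starts further upstream.
CDC7 (rose, chr1:91500992-91501111, plus strand): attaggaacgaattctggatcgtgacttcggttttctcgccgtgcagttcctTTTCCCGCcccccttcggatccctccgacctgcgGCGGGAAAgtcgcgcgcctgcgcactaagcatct
GINS2 (rose, chr16:85688955-85689074, minus strand): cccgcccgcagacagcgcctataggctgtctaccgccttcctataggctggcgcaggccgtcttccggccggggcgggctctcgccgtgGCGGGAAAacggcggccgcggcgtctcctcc
GMNN (rose, chr6:24775293-24775412, plus strand): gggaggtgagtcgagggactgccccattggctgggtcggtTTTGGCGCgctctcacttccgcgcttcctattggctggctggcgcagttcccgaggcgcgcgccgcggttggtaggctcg
LIG1 (rose, chr19:48170345-48170464, minus strand): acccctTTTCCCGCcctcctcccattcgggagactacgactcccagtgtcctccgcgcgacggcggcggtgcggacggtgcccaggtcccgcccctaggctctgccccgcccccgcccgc
MCM7 (rose, chr7:100101398-100101517, minus strand): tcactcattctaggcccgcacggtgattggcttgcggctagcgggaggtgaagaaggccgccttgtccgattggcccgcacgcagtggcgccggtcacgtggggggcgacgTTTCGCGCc
POLE (rose, chr12:132687343-132687462, minus strand): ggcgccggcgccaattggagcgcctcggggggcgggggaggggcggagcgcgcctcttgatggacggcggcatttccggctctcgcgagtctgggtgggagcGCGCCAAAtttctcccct
RFC3 (rose, chr13:33818029-33818148, plus strand): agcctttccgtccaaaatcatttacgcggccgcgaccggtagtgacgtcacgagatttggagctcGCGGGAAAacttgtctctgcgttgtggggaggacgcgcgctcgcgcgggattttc
TYMS (fell, chr18:657533-657652, plus strand): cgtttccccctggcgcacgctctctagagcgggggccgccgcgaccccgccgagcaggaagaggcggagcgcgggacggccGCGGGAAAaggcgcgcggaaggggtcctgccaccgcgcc
TK1 (fell, chr17:78187053-78187172, minus strand): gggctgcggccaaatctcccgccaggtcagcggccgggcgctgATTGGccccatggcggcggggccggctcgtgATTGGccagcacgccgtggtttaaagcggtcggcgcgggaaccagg

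Replication genes did not move as a block. Of the 53 genes 51 passed the filter on low counts. Of these 51, 15 rose and 8 fell with lipoic acid at an adjusted p under 0.05, and 28 were not called (edgeR quasi-likelihood F test, Benjamini-Hochberg over all 13780 tested genes). The 23 calls are 45.1% of the 51, against 47.4% of all tested genes, so replication genes were called about as often as genes in general. Rises made up 29.4% of the 51 (all tested genes 24.2%) and falls 15.7% (all tested genes 23.3%). The median log2 fold change was 0.17, against -0.01 over all tested genes. A change of at least 2-fold was called for 8 of the 51 (15.7%, against 13.9% of all tested genes): CDC6, ATAD2, MCM4, GINS2 and POLE2 rose by that much, and TK1, CCNE1 and E2F8 fell by it. The 3 lipoic acid values lay all above or all below the 3 untreated values for 29 of the 51 (56.9%, against 59.1% of all tested genes). With a trend of GC content and transcript length removed from each library, 11 replication genes rose and 9 fell, so rises were 55% of the calls against 65.2% without that step. Over all genes that step moved the share of rises from 50.9% to 40.9%.

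**Figure D1:**
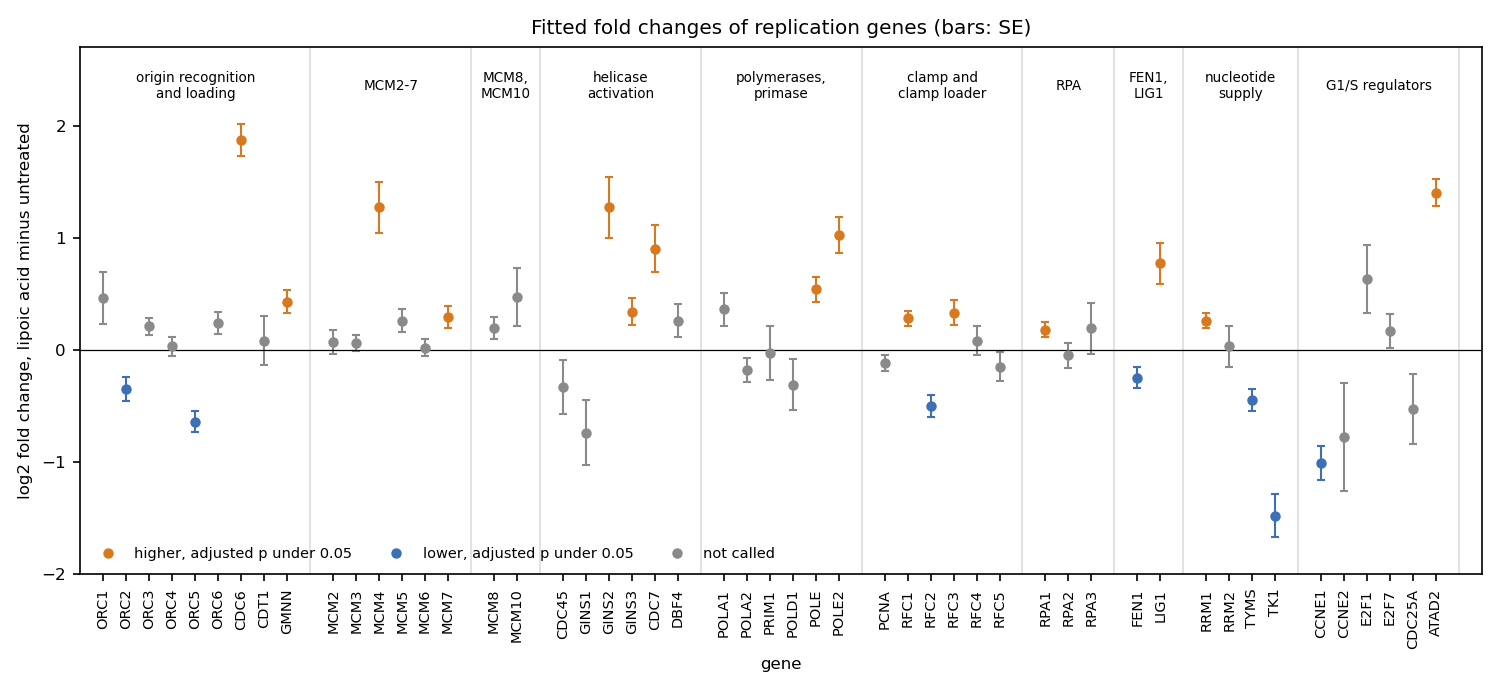
Fitted log2 fold change (lipoic acid minus untreated) of the tested replication genes, ordered by role, with bars for the standard error of the fit. CDC6 is highest at 1.87 and TK1 lowest at -1.48, and E2F8, which had no count with lipoic acid, is not drawn.

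Among the genes that recognise and license origins, 2 of 9 rose and 2 fell (22.2% each, against 24.2% and 23.3% of all tested genes), and 5 were not called. Each role holds few genes, so counts of calls per role are description only. CDC6 (chromosome 17, 40287633 to 40304657, GRCh38), an ATPase that helps to load the helicase onto DNA, had the largest rise of all 53 genes. CDC6 stood at 6.89, 9.64 and 7.51 CPM in untreated replicates 1 to 3 and at 26.7, 32.2 and 29.2 CPM in lipoic acid replicates 1 to 3. The groups were far apart, with a fitted rise of 3.66-fold (log2 1.87, SE 0.14, adjusted p = 7.6e-06). GMNN, which encodes the CDT1 inhibitor geminin, was at 23.3, 29.9 and 26 CPM untreated and at 34, 38.3 and 34.8 CPM with lipoic acid (1.35-fold higher, adjusted p = 0.00623). CDT1 itself had 3.66 ± 0.398 CPM untreated and 3.88 ± 0.441 CPM in lipoic acid libraries (SD, n = 3 each), and its groups overlapped. Of these 2 loading factors CDC6 rose and CDT1 was not called.

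The 6 subunits of the origin recognition complex differed among themselves. ORC5, an ATPase subunit, fell from 34.9, 43.6 and 36.4 CPM to 24.7, 24.5 and 24.7 CPM (1.56-fold, adjusted p = 0.000499), and the 3 lipoic acid libraries were nearly equal. ORC2, a core subunit, was at 21.7, 18.2 and 22 CPM untreated and at 15.1, 16.6 and 16.9 CPM with lipoic acid (1.27-fold lower, adjusted p = 0.0249). The ORC2 call was lost without untreated replicates 1 (adjusted p = 0.0813) or 3 (0.0968) and without lipoic acid replicates 1 (0.107), 2 (0.0585) or 3 (0.0637). ORC3, ORC6 and ORC1 were not called, with log2 fold changes of 0.21, 0.24 and 0.46. The ORC3 groups did not overlap, and ORC3 was at the threshold: it was called higher in 11 of the 20 alternatives, among them DESeq2 (adjusted p = 0.0408), limma (0.0124) and the fit without untreated replicate 2 (0.00742). ORC6 was called higher in 5 alternatives, among them limma (0.0185) and the fit without untreated replicate 2 (0.0141). ORC1 was called without lipoic acid replicate 2 (0.025). ORC4 had 56.3 ± 4.81 CPM untreated and 57.5 ± 3.39 CPM with lipoic acid.

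Of the MCM2 to MCM7 genes, which encode the ring of 6 subunits that unwinds DNA, 2 rose (33.3%, all tested genes 24.2%) and 4 were not called. MCM4 (chromosome 8, 47960185 to 47978160) was at 3.26, 2.29 and 3.49 CPM untreated and at 6.28, 8.92 and 6.72 CPM with lipoic acid. The groups did not overlap, and the fit gave a 2.42-fold rise (log2 1.27, SE 0.23, adjusted p = 0.00157). MCM7 was at 55.6, 50.5 and 53.5 CPM untreated and at 62, 75.7 and 58.4 CPM with lipoic acid, highest in lipoic acid replicate 2. Its 1.23-fold rise (adjusted p = 0.0305) was lost without untreated replicates 2 (0.0503) or 3 (0.0676) and without lipoic acid replicate 2 (0.0935). MCM5 was at 24.8, 25.9 and 21.9 CPM untreated and at 26.4, 32.2 and 28.5 CPM with lipoic acid. The MCM5 groups did not overlap but the gene was not called (adjusted p = 0.0603), though it was called higher without untreated replicate 2 (0.0263) or lipoic acid replicate 1 (0.0479) and with limma (0.0195). MCM3 was at 64.3, 57.4 and 61.4 CPM untreated and at 64.2, 67.5 and 59.2 CPM with lipoic acid, and its groups overlapped, as did those of MCM2 and MCM6. The log2 fold changes of MCM2, MCM3 and MCM6 were 0.07 (SE 0.11), 0.06 (SE 0.075) and 0.02 (SE 0.077). Genes on the other strand cover 0.236 of the exonic length of MCM2, and whether the counting used strand is not stated, so their reads cannot be told apart from those of MCM2.

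MCM8, a relative that acts in repair of DNA by recombination, and MCM10, which helps to start the fork, were not called. MCM8 was at 19.3, 19.3 and 17.1 CPM untreated and at 20.4, 22.3 and 20.8 CPM with lipoic acid, all 3 above the untreated values (adjusted p = 0.133). MCM10 was at 2.65, 4.66 and 2.89 CPM untreated and at 4.43, 5.38 and 4.35 CPM with lipoic acid. Its groups overlapped only through untreated replicate 2, without which MCM10 was called higher (adjusted p = 0.0153, against 0.157 with all libraries).

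Among the factors that activate the helicase, 3 of 6 tested genes rose (50%, all tested genes 24.2%) and 0 fell (all tested genes 23.3%). GINS2 (chromosome 16, 85676198 to 85690073), a subunit of the GINS complex, was at 2.28, 4.69 and 2.79 CPM without lipoic acid and at 8.02, 8.86 and 6.62 CPM in lipoic acid libraries. Every lipoic acid value was above every untreated one, with a rise of 2.41-fold (log2 1.27, SE 0.27, adjusted p = 0.00364). CDC7 (chromosome 1, 91500893 to 91525764), the kinase that phosphorylates the MCM ring, rose from 15.3, 7.75 and 14.3 CPM to 21.5, 26.3 and 22.2 CPM (1.87-fold, adjusted p = 0.0062). Untreated replicate 2 was the lowest library for CDC7 but the highest untreated library for GINS2. DBF4, the subunit that activates CDC7, had 13.9 ± 2.09 CPM untreated and 16.6 ± 2.26 CPM with lipoic acid and was called only when libraries or the test changed, for instance without untreated replicate 2 (adjusted p = 0.031).

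The other GINS genes showed a spread of responses. GINS3 was at 11.3, 11.7 and 10.3 CPM untreated and at 14.6, 12.8 and 14.8 CPM with lipoic acid (1.27-fold higher, adjusted p = 0.043). That call was lost without untreated replicates 1 (0.0668) or 3 (0.122), without lipoic acid replicates 1 (0.121) or 3 (0.14) and also with the trend of GC content and length removed (0.224) and with no filter on low counts (0.0568). GINS1 was at 3.2, 7.12 and 4.85 CPM untreated and at 2.99, 2.91 and 3.14 CPM with lipoic acid. The 3 lipoic acid values of GINS1 were below all untreated ones, without a call (adjusted p = 0.0549), though GINS1 was called lower without untreated replicate 1 (0.0117), with DESeq2 (0.0407) and with the trend of GC content and length removed (0.0293). GINS4 was too low to be tested, with 6, 0 and 2 counts in the untreated and 10, 6 and 2 counts in the lipoic acid libraries, and 0.236 of its exonic length lies over genes on the other strand. CDC45, which travels with GINS and the MCM ring, had 7.89 ± 2.76 CPM untreated and 6.29 ± 0.902 CPM with lipoic acid, and its groups overlapped.

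**Figure D2:**
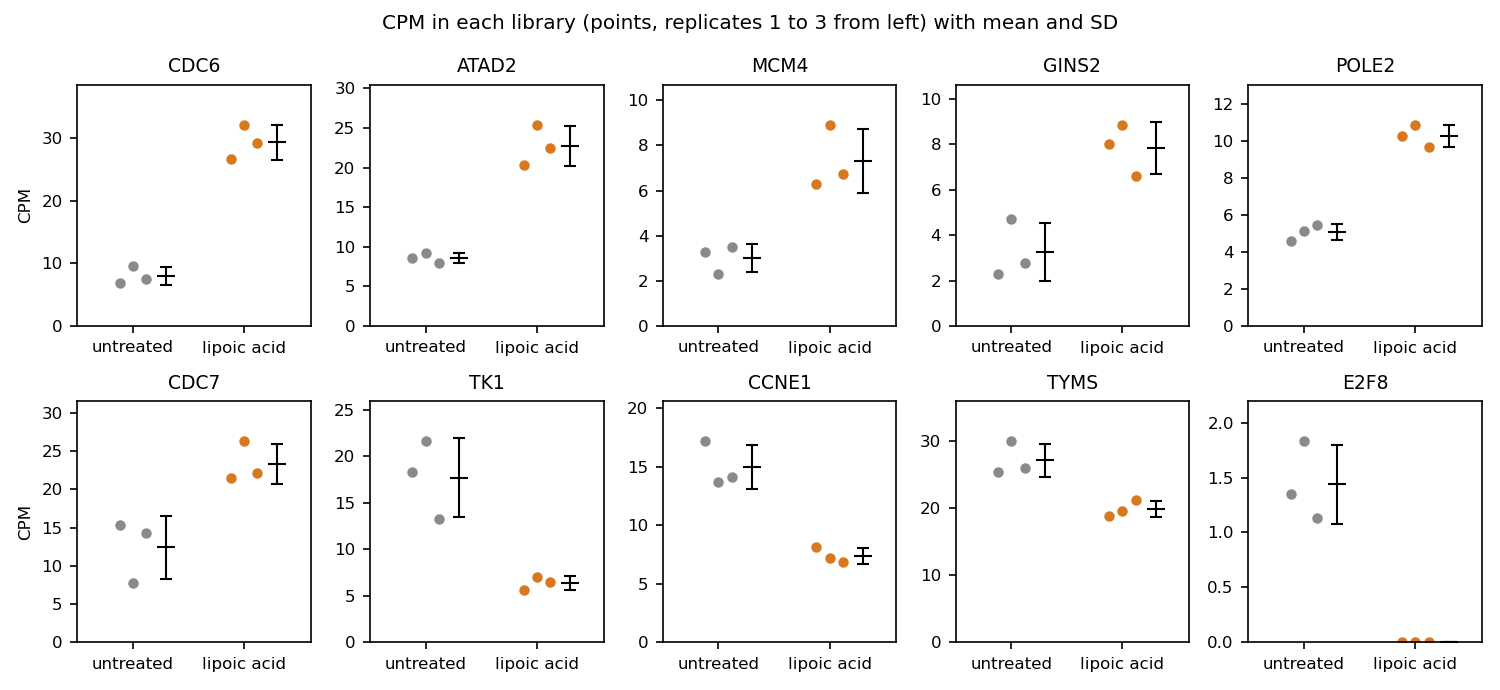
CPM of 10 replication genes in each library, with the mean and SD of each group (n = 3). All 10 were chosen from the called genes, and in each panel the lipoic acid points lie wholly above or wholly below the untreated points. Groups lay apart in this way for 56.9% of tested replication genes and 59.1% of all tested genes. The 3 lipoic acid libraries of E2F8 lie at 0.

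Of the polymerase and primase genes, 2 of 6 rose (33.3%, all tested genes 24.2%) and 0 fell (all tested genes 23.3%). Both that rose encode subunits of polymerase epsilon, the enzyme of the leading strand. POLE2 (chromosome 14, 49643555 to 49688422) was at 4.61, 5.15 and 5.49 CPM untreated and at 10.3, 10.9 and 9.72 CPM with lipoic acid. The spread within each group was small beside the 2.03-fold rise (log2 1.02, SE 0.16, adjusted p = 0.000563). POLE, the catalytic subunit, was at 13.6, 11.4 and 12.7 CPM untreated and at 19.2, 18.4 and 17.2 CPM with lipoic acid (1.46-fold higher, adjusted p = 0.00346). POLA1 and POLA2, genes of polymerase alpha, which lays down primers with primase, were not called. POLA1 was at 10.6, 8.35 and 10.8 CPM untreated and at 11.6, 14.4 and 12.1 CPM with lipoic acid, without overlap (adjusted p = 0.0777). POLA2 was at 26.6, 33.2 and 25.6 CPM untreated and at 26.2, 25.8 and 23.5 CPM with lipoic acid, with overlap, and a gene on the same strand covers 0.351 of the exons of POLA2. POLD1, the catalytic subunit of polymerase delta, and PRIM1, a primase subunit, had log2 fold changes of -0.31 (SE 0.23) and -0.03 (SE 0.24). Among other fork genes PRIM2, of primase, and POLD3, of polymerase delta, rose 1.43-fold and 1.22-fold (adjusted p = 0.0291 and 0.0396). Both calls were lost with the trend of GC content and length removed (0.0743 and 0.379). POLD2, POLD4 and POLE3 were not called, and POLE4 fell.

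Of 6 clamp and clamp loader genes 2 were higher (33.3%, all tested genes 24.2%) and 1 lower (16.7%, all tested genes 23.3%). PCNA, the sliding clamp, was the most abundant of the 53 genes in CPM per kb of exon (115 ± 8.44 untreated and 106 ± 5.25 with lipoic acid). PCNA was at 158, 183 and 165 CPM untreated and at 149, 164 and 153 CPM with lipoic acid, and the groups overlapped (log2 fold change -0.12, SE 0.07). RFC2, a small subunit of the clamp loader, fell from 24.3, 28.9 and 24.2 CPM to 17.9, 18.6 and 18.3 CPM (1.41-fold, adjusted p = 0.00262). RFC1, the large subunit, moved the other way, from 96.4, 93.8 and 98.2 CPM to 120, 109 and 120 CPM (1.21-fold, adjusted p = 0.00592), but was not called with the trend of GC content and length removed (0.223). RFC3 was at 14.9, 17.4 and 19.3 CPM untreated and at 21, 21.1 and 22.6 CPM with lipoic acid (1.26-fold higher, adjusted p = 0.0367). The RFC3 call was lost with that trend removed (0.126), on leaving out untreated replicate 1 (0.098), and on leaving out lipoic acid replicate 1 (0.0738), 2 (0.0665) or 3 (0.122). RFC4 and RFC5 were not called, with log2 fold changes of 0.08 (SE 0.13) and -0.15 (SE 0.13), though RFC4 was called higher without untreated replicate 2 (adjusted p = 0.049).

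Replication protein A coats single-stranded DNA at the fork. RPA1, its large subunit, was at 137, 148 and 132 CPM untreated and at 153, 164 and 155 CPM with lipoic acid, a 1.13-fold rise (adjusted p = 0.0412). The RPA1 rise was not called with the trend of GC content and length removed (log2 0.04, adjusted p = 0.734), nor without untreated replicates 1 (0.0727) or 3 (0.126) or lipoic acid replicates 1 (0.0623), 2 (0.117) or 3 (0.0801). RPA2 was at 50.3, 67.4 and 54.4 CPM untreated and at 51.3, 58.7 and 56.6 CPM with lipoic acid. RPA3 was at 6.28, 7.35 and 4.12 CPM untreated and at 6.43, 7.91 and 5.95 CPM with lipoic acid. The groups of both smaller subunits overlapped and neither was called.

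The enzymes that finish lagging-strand fragments moved apart. LIG1, the ligase that seals them, was at 8.18, 5.42 and 6.45 CPM untreated and at 11, 12.7 and 10.6 CPM with lipoic acid (1.71-fold higher, adjusted p = 0.00553). Against untreated replicate 1 alone, the only untreated library of even counts, the LIG1 difference was 0.48 on the log2 scale, in place of 0.77. FEN1, the flap nuclease, was at 19.9, 20.7 and 20.6 CPM untreated and at 17, 16.3 and 18 CPM with lipoic acid. The FEN1 fall of 1.19-fold (adjusted p = 0.0482) was near the threshold and was lost in 16 of the 20 alternatives, among them all 6 that leave out a library (untreated replicates 1 to 3: 0.0814, 0.0575 and 0.12, lipoic acid replicates 1 to 3: 0.134, 0.143 and 0.0934).

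Among 4 genes that supply deoxynucleotides, both enzymes of thymidylate supply fell and the large subunit of the reductase rose. TK1 (chromosome 17, 78174075 to 78187233), the cytosolic thymidine kinase of dividing cells, had the largest fall among the genes still detected. TK1 was at 18.3, 21.6 and 13.2 CPM without lipoic acid and at 5.58, 7.03 and 6.53 CPM in lipoic acid libraries. The lowest untreated library was above the highest lipoic acid library, and the fitted fall was 2.78-fold (log2 -1.48, SE 0.19, adjusted p = 0.000188). TYMS (chromosome 18, 657604 to 673578), thymidylate synthase, fell from 25.4, 29.9 and 25.9 CPM to 18.8, 19.5 and 21.1 CPM (1.37-fold, adjusted p = 0.00406). Other genes on the opposite strand, TYMSOS and ENOSF1, cover 0.466 of the exonic length of TYMS. RRM1, the large subunit of ribonucleotide reductase, was at 59.9, 68.4 and 63.9 CPM untreated and at 74.5, 79 and 76 CPM with lipoic acid (1.19-fold higher, adjusted p = 0.0127), which was not called with the trend of GC content and length removed (0.277). RRM2, the small subunit whose level follows the cell cycle, was at 25.7, 42.4 and 34.1 CPM untreated and at 27.9, 40.8 and 35.8 CPM with lipoic acid, so that libraries of 1 group differed more than the groups did (log2 fold change 0.03, SE 0.18).

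Regulators of entry into S phase held some of the largest rises and some of the largest falls. ATAD2 (chromosome 8, 123319850 to 123416350), a chromatin ATPase with a bromodomain and a known E2F target, rose from 8.61, 9.18 and 7.98 CPM to 20.3, 25.4 and 22.4 CPM (2.64-fold, log2 1.4, SE 0.12, adjusted p = 2.29e-05). CCNE1 (chromosome 19, 29811898 to 29824308), cyclin E1, the partner of CDK2 at the start of S phase, fell from 17.2, 13.7 and 14.1 CPM to 8.17, 7.22 and 6.86 CPM (2.02-fold, adjusted p = 0.000382). Neither gene had overlapping groups. E2F8 (chromosome 11, 19224063 to 19241620), a repressor of E2F targets, had 44, 55 and 34 counts in untreated libraries and 0 in every lipoic acid library. With 3 counts over the lipoic acid group taken as the limit that a count of 0 allows (0.0532 CPM, even counts halved), E2F8 was at least 27-fold lower than the untreated 1.44 ± 0.357 CPM (adjusted p = 0.000213). That limit covers counting error alone.

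The remaining E2F and cyclin genes were low or not called. E2F1, an activator, was at 2.71, 2.69 and 2.63 CPM untreated and at 3.59, 6.08 and 2.85 CPM with lipoic acid. The untreated libraries were nearly equal and the lipoic acid libraries were spread, and E2F1 was not called (adjusted p = 0.104) except with the trend of GC content and length removed (0.0494). E2F7, the other repressor, had 8.87 ± 1.34 CPM untreated and 9.99 ± 0.392 CPM with lipoic acid (log2 fold change 0.17, SE 0.15), so the repressors E2F7 and E2F8 did not share a call. E2F2 had a count of 0 in all 6 libraries, and the limit for that is 0.039 CPM in the untreated group and 0.0532 CPM in the lipoic acid group. CCNE2, cyclin E2, had 1.05 ± 0.347 CPM untreated and 0.613 ± 0.239 CPM with lipoic acid, with 0.371 of its exonic length over genes on the other strand. CDC25A, a phosphatase that activates CDK2, had 2.62 ± 0.568 CPM untreated and 1.81 ± 0.443 CPM with lipoic acid, and the groups of both overlapped.

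Levels of subunits of the same complex were unequal when expressed per length. In CPM per kb of exon, MCM3 (16.7 ± 0.944), MCM7 (12.1 ± 0.589) and MCM6 (10.9 ± 0.483) were the highest MCM genes in untreated libraries, MCM2 (4.85 ± 0.623) and MCM5 (3.3 ± 0.285) followed, and MCM4 (0.432 ± 0.091) was lowest. No neighbours in this order overlapped between untreated libraries. With lipoic acid the order was the same, but MCM3 and MCM7 (14.9 ± 2.09) overlapped, with MCM3 at 17.4 ± 1.15, MCM5 at 3.95 ± 0.397 and MCM4 at 1.05 ± 0.203. Among origin recognition genes ORC3 was highest (15.2 ± 1.32 untreated) and ORC1 lowest (1.47 ± 0.154). ORC5 stood above ORC4 in untreated libraries (10.3 ± 1.25 against 6.32 ± 0.54) and level with it with lipoic acid (6.61 ± 0.0293 against 6.45 ± 0.381). RPA1 (25.3 ± 1.53) and RPA2 (28.4 ± 4.44) did not differ beyond their spread in untreated libraries, and RPA3 was at 1.83 ± 0.508. GINS4 was at 0.0153 CPM per kb in the untreated mean, against 0.997 to 2.18 for GINS2, GINS1 and GINS3. These lengths are the union of annotated exons, which can be longer than the transcripts the cells make, and amplification of cDNA can favour parts of a transcript.

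**Figure D3:**
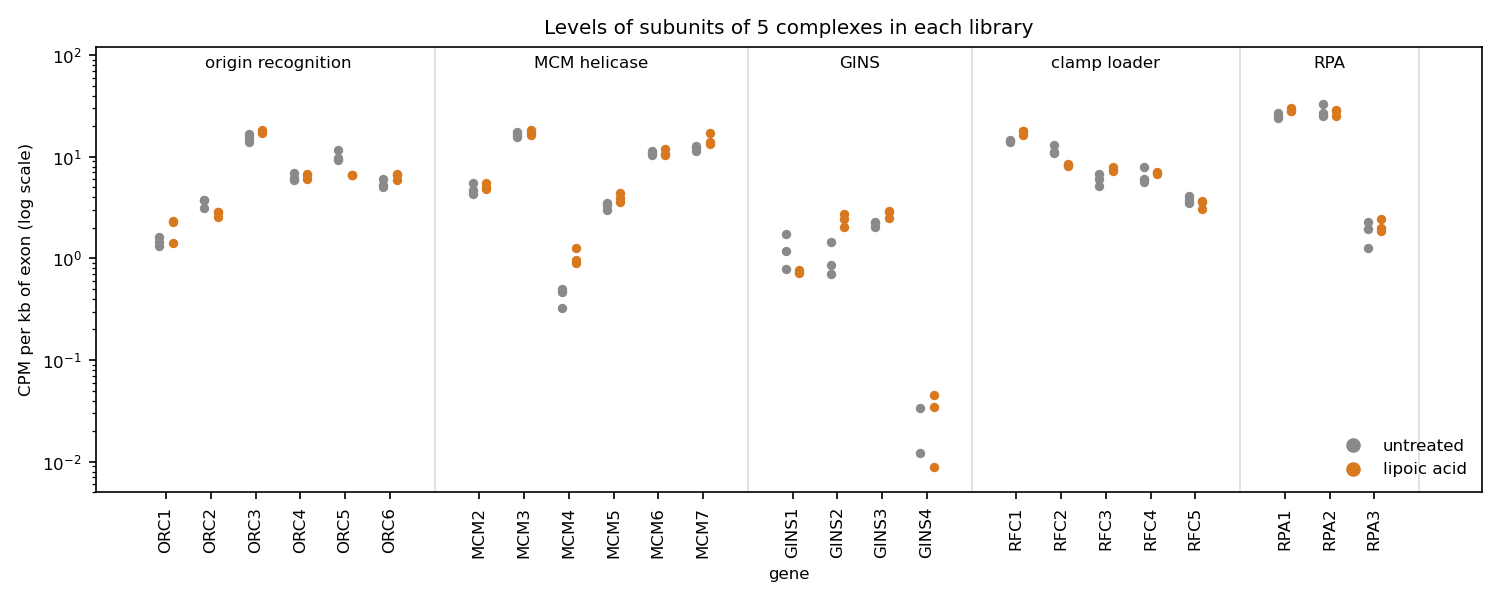
CPM per kb of exon (log scale) of the subunits of the origin recognition complex, MCM helicase, GINS, clamp loader and replication protein A, with 1 point per library (a library at 0 cannot be drawn on this scale). MCM4, GINS4 and RPA3 lie below their partners in both groups, and MCM4 and GINS2 are higher with lipoic acid.

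E2F words stood in most promoters of replication genes that rose, in many of those not called and in 1 of those that fell. A RefSeq window of 300 bases (250 before to 50 after a start) was available for 45 of the 53 genes. MCM4, MCM5, GINS4, RPA2, RPA3, CCNE2, E2F8 and ATAD2 had none. The counts below therefore leave out MCM4 and ATAD2, which rose, and E2F8, which fell. An E2F word stood in a window of 24 of these 45 (53.3%). The same held for 683 of 10763 tested genes with a window (6.35%) and for 3.99% of all RefSeq symbols with one. Counted per window and not per gene, the share over all windows was 3.31%. Among replication genes that rose, 10 of 13 held a word (CDC6, GMNN, MCM7, GINS2, GINS3, CDC7, POLE, POLE2, RFC3 and LIG1), and RFC1, RPA1 and RRM1 did not. Among those that fell, 1 of 7 held one, TYMS, and among those not called 12 of 24. TK1, CCNE1, FEN1, RFC2, ORC2 and ORC5 fell and held none of the 4 words in their windows. The split did not extend to genes at large: of the 683 tested genes with a word 22.3% rose and 19.5% fell, and of the 10080 without one 24.6% rose and 23.4% fell. With the trend of GC content and length removed, 9 of 9 genes that rose and 2 of 8 that fell held a word. Over the other settings the shares ran from 8 of 13 to 7 of 8 for rises and from 1 of 7 to 2 of 6 for falls, apart from 10 of 17 rises without untreated replicate 2 and without both libraries numbered 2. CDC6, whose word begins at base 8 counted from the RefSeq start as base 1, is not shown above, nor are GINS3 and POLE2, whose words span the start. MCM6, which was not called, held 4 words. A word is a match of letters and not a measured site.

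**Figure D4:**
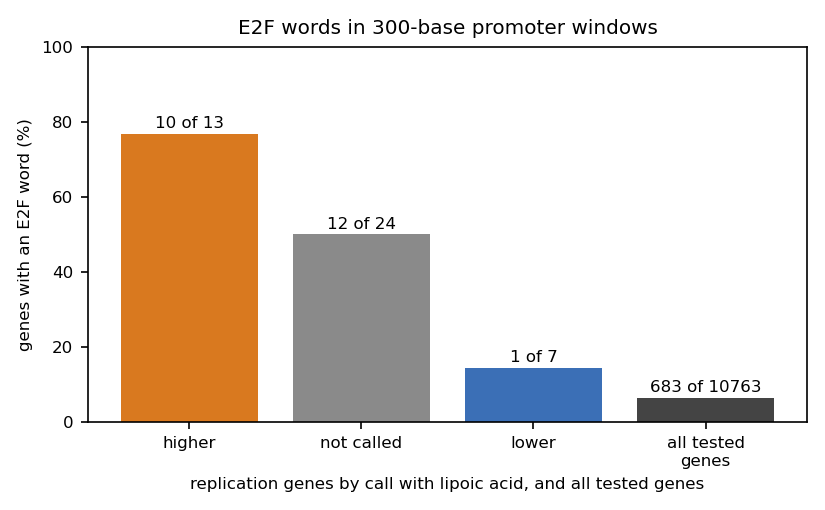
Share of genes with at least 1 E2F word in a 300-base promoter window, for replication genes that were higher, not called or lower with lipoic acid, and for all tested genes with a window. The bars stand at 10 of 13, 12 of 24, 1 of 7 and 683 of 10763 genes.

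Libraries of 1 group differed in replication genes as a whole. The summed level of the 53 genes was 1290, 1437 and 1303 CPM in untreated replicates 1 to 3 and 1404, 1517 and 1435 CPM in lipoic acid replicates 1 to 3. The means were 1343 ± 81.5 and 1452 ± 58.5 CPM, and the groups overlapped through untreated replicate 2 (1.08-fold, exact two-sided permutation p = 0.3, where 3 libraries against 3 allow no p under 0.1). Without untreated replicate 2 the difference was 155 CPM in place of 109 CPM. Untreated replicate 2 was the highest untreated library for 36 of the 51 tested genes, and lipoic acid replicate 2 the highest of its group for 30 of 51. The same libraries had the lowest sums of 10 mesenchymal markers, 1925 CPM against 2557 and 2458 CPM in the other untreated libraries and 1477 CPM against 2026 and 1932 CPM in the other lipoic acid libraries, and the highest sums of 20 G2/M genes in their groups. The part of these markers in the result was not tested. Without untreated replicate 2, 20 replication genes rose and 7 fell, and without both libraries numbered 2, 19 rose and 7 fell. Of all genes tested in those fits 49.3% and 49% were called, against 47.4% with all libraries.

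**Figure D5:**
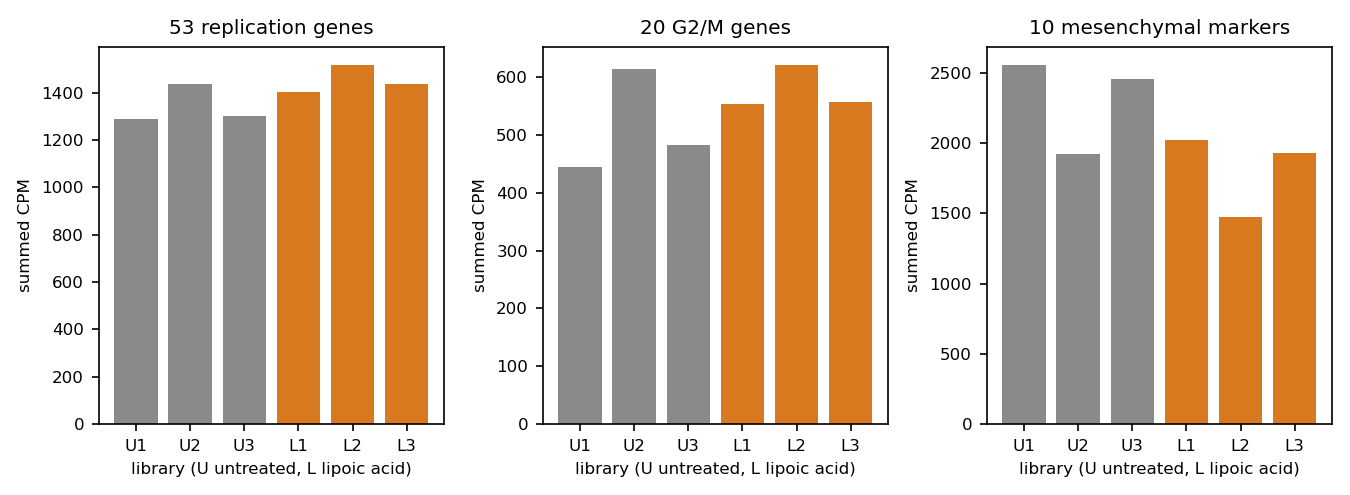
Summed CPM in each library of the 53 replication genes, of 20 G2/M genes and of 10 mesenchymal markers, from untreated (U) and lipoic acid (L) replicates 1 to 3. Replicate 2 of each group has the highest sum of replication and G2/M genes and the lowest sum of mesenchymal markers in that group.

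Of 107 other genes of the pathway, 18 rose and 11 fell (27.1%, against 47.4% of all tested genes). That balance turned with the trend of GC content and length removed (8 higher, 19 lower). All tested genes shifted the same way, from 3329 higher and 3205 lower to 2587 higher and 3733 lower. The balance of the 107 genes was even or nearly so without lipoic acid replicate 1 or 2 (12 higher, 11 lower each) or 3 (9 and 9). It was also nearly even without untreated replicate 1 (13 higher, 15 lower). Of 31 other fork genes 5 rose (16.1%, all tested genes 24.2%) and 2 fell (6.45%, all tested genes 23.3%). With that trend removed 1 rose and 5 fell. Without untreated replicate 2, 5 rose and 1 fell, and without any other single library 2 or 3 rose and 1 to 3 fell. POLE4, a small subunit of polymerase epsilon, fell 2.59-fold from 5.48 ± 0.765 to 2.12 ± 0.42 CPM (adjusted p = 0.00126), opposite to POLE and POLE2, and TIMELESS, which holds the fork together, rose 1.39-fold (adjusted p = 0.00267). Of 13 other genes of nucleotide supply 3 rose and 3 fell (23.1% each, against 24.2% and 23.3% of all tested genes). Among the falls were DUT, which makes dUMP for thymidylate synthesis (1.82-fold, from 16.6 ± 0.787 to 9.11 ± 0.709 CPM), and DCTPP1, a pyrophosphatase that clears modified dCTP (1.67-fold, from 63.1 ± 9.34 to 37.7 ± 1.16 CPM). Their adjusted p values were 0.000346 and 0.000269. SHMT1, a cytosolic enzyme of folate metabolism, rose 1.63-fold (adjusted p = 0.00371).

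Of 18 genes of the E2F, RB and CDK2 group 3 rose and 3 fell (16.7% each, against 24.2% and 23.3% of all tested genes). CCNA1, a cyclin A best known from germ cells, fell 3.86-fold from 20.2 ± 4.73 to 5.25 ± 0.664 CPM (adjusted p = 3.25e-05), and CDC25C, a phosphatase of mitotic entry, fell 3.2-fold from 9.15 ± 1.18 to 2.85 ± 0.746 CPM (adjusted p = 0.000265). RBL1, the pocket protein p107, rose 1.83-fold from 8.64 ± 1.48 to 15.8 ± 1.53 CPM (adjusted p = 0.00131) and E2F5, a repressor E2F, rose 1.53-fold from 14.5 ± 0.647 to 22.2 ± 1.56 CPM (adjusted p = 0.000864). Of 13 replication checkpoint genes 0 rose (all tested genes 24.2%) and 3 fell (23.1%, all tested genes 23.3%). ATRIP, the partner of the kinase ATR, was 2.13-fold lower (15.4 ± 1.27 against 7.23 ± 1.19 CPM, adjusted p = 0.000345). Of 12 chromatin assembly genes 1 rose, SUPT16H (8.33%, all tested genes 24.2%), and 0 fell (all tested genes 23.3%). SUPT16H rose 1.14-fold (adjusted p = 0.0138), without a call once the trend of GC content and length was removed (0.698) or without lipoic acid replicate 3 (0.0525). Of 20 G2/M genes 6 rose (30%, all tested genes 24.2%) and 0 fell (all tested genes 23.3%). With the trend of GC content and length removed, 2 rose and 1 fell, while over all genes rises moved from 50.9% to 40.9% of the calls. Without untreated replicates 1, 2 or 3 the G2/M rises numbered 3, 11 and 3, and without lipoic acid replicates 1, 2 or 3 they numbered 4, 3 and 2, with 0 falls each time. CENPE, a kinetochore motor, was 4.88-fold higher with lipoic acid (2.96 ± 1.82 against 14.5 ± 1.3 CPM, adjusted p = 0.00111). The summed G2/M level was 444.4 to 614.2 CPM untreated and 552.8 to 620.8 CPM with lipoic acid, so that the groups overlapped.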

How the data were processed

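Raw counts per gene symbol for 6 libraries were deposited by the authors. The submitters' processing notes list HISAT2, featureCounts and DESeq2 and the build hg38, without roles. Which tool versions and gene models were used, whether strand was used and how multiply aligned reads were treated is not given in the sources used here. The cDNA was amplified and no molecular barcodes are mentioned, so limits cover counting error only. Symbols were joined to GENCODE v29 (GRCh38) for positions, exonic length and overlaps (99.36% of symbols found, all 53 members among them).

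In R 4.3.3, edgeR 4.0.16 kept 13780 genes by filterByExpr, scaled libraries by TMM and tested lipoic acid minus untreated (quasi-likelihood F test, group as the only term). Benjamini-Hochberg adjustment ran over all tested genes, with calls at an adjusted p under 0.05. The fit was tested on simulated data. Alternatives used limma 3.58.1 and DESeq2 1.42.0. The GC content and length trend was fitted per library with splines of 4 degrees of freedom on the longest transcript.

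Members, gene lists and tests were chosen with earlier results of these data known. Every member could be named. Values in each library were given for up to 4 members of each role with the lowest p and for every member that fell, and up to 4 called genes were named per other list. The genes whose promoters are shown were chosen after their values were seen. The values of 1 gene of the other nucleotide supply list are not reported here.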

Additional observations from a re-analysis of the deposited data

How the results depend on the processing

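Of the 23 calls among replication genes 14 kept direction and call in all 20 other settings (CDC6, GMNN, ORC5, MCM4, GINS2, CDC7, POLE, POLE2, RFC2, TYMS, TK1, CCNE1, E2F8 and ATAD2). The other 9 lost the call in at least 1 setting, and no called gene changed sign. Leaving out each library in turn gave 18 to 27 called replication genes (12 to 20 higher and 6 to 7 lower). In the same fits 35.8% to 49.3% of all tested genes were called. The calls in the other pathway lists numbered 29 (all tested genes 47.4%), against 17 at an adjusted p under 0.01 (all tested genes 31.2%). They numbered 18 to 34 when each library was left out in turn, lowest without lipoic acid replicate 3. With limma they numbered 41 (all tested genes 54.3%). The replicate block, the replicate number as a term of the fit, gave 17 replication genes higher and 7 lower (47.6% of all tested genes called). Same-numbered libraries of the groups shared only a weak correlation of their deviations (0.06, 0.06 and 0.078 for numbers 1 to 3), though each library correlated best with its own number, so the numbers were not taken as pairs. The fit without both libraries numbered 2 and that with all counts halved were chosen after seeing the data. Depth limits GINS4, E2F2, CCNE2 and E2F8, which had at most 55 counts in any library. The alternative with libraries of even counts keeps 1 untreated library, which is assumed to vary like the 3 with lipoic acid.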
